A study of Mus musculus with 28 samples.

Results

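The 18 histone genes described here were chosen by name. A gene was taken where the annotation of its array, or its current symbol, placed it in the main histone families (older names beginning Hist1h to Hist4h, current names such as H1f2 or H2bc9), where it had a probe set carrying its symbol alone, and where that held on both array types of the study. They are 18 of the 18974 genes measured that way in all 4 tissues, and each was read from its probe set with the highest mean. The set was put forward with the age results of these arrays in view, so its age values below are a description and support nothing beyond themselves. It holds 8 linker histones (H1f1, H1f2, H1f3, H1f5, H1f6, H1f7, H1f8 and H1f10), 2 genes of the H2A class (H2ac1 and H2ac15), 7 of the H2B class (H2bc1, H2bc3, H2bc9, H2bc14, H2bc18, H2bc21 and H2bc22), 1 of the H3 class (H3c7) and 0 of the H4 class.

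Total RNA of 28 samples was hybridised to Affymetrix whole-transcript arrays. The mice were female C57BL/6J, an inbred laboratory strain, housed in groups on standard chow, aged 24 weeks (about 6 months) or 103 weeks (about 24 months) and killed after an overnight fast. One array type served liver and the quadriceps of the thigh, each with 3 arrays at either age. The other served heart and the gastrocnemius of the calf, each with 4. No label says that the arrays of a group are separate animals, so every p-value reflects the spread among these arrays, which may be technical.

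Histones are the proteins around which nuclear DNA is wound: H2A, H2B, H3 and H4 form the core of the nucleosome, and linker histones of the H1 class sit where DNA enters and leaves it. Most histone genes lie in clusters, are transcribed mainly while a cell copies its DNA, and give mRNAs that end in a stem-loop in place of a poly(A) tail; some, H1f2 among them, are also expressed in cells that no longer divide. Other members belong to germ cells, such as H1f6, H1f7, H2ac1 and H2bc1 of the testis and H1f8 of the oocyte, and H1f10 is a linker histone made outside DNA replication. Adult liver, muscle and heart consist mostly of cells that are not dividing.

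Promoter windows from RefSeq (assembly GRCm38.p6) were at hand for 16 of the 18 genes. H2bc21 and H3c7 had no entry. The 4 stretches shown are the last 130 bases before the start sites of H1f2, the linker gene on which the age results turn, and of the linker genes H1f1, H1f3 and H1f5, so that its promoter can be seen beside those of its cluster neighbours. H1f2 lies at chr13:23738677-23738806 on the plus strand, H1f1 at chr13:23763538-23763667 (plus), H1f3 at chr13:23554902-23555031 (plus) and H1f5 at chr13:21780626-21780755 (minus). They are written 5′ to 3′ on the gene's strand, with capitals for AAACACA, the motif known as the H1 box, for CCAAT and for TATAAA.
H1f2: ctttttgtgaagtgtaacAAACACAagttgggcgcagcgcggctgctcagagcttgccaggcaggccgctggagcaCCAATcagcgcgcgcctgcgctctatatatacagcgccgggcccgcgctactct
H1f1: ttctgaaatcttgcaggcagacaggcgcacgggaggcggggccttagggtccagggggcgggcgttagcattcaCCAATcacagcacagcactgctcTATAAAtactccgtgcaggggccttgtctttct
H1f3: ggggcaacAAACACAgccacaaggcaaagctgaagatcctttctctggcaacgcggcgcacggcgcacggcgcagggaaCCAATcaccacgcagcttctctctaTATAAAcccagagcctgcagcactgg
H1f5: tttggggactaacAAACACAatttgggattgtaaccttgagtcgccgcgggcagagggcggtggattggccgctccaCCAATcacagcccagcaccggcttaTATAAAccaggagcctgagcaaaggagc

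In the H1f2 stretch the H1 box begins 112 bases before the start site and the CCAAT motif 54 bases before it. H1f3 and H1f5 had the H1 box beginning at 122 and 117 bases and the CCAAT motif at 51 and 53. H1f1 had the CCAAT motif at 56 and no exact H1 box. The TATA motif was found in H1f1, H1f3 and H1f5, and H1f2 had other letters there. No 2 matches in the printed stretches overlapped. Searched on both strands of the 250 bases before the start, the H1 box letters were in 4 of 8 linker genes and in 6.25% of 32851 windows of all genes. They were not confined to linker genes: 2 of 6 H2B genes (H2bc1 and H2bc14) and H2ac1 had them too, 7 of the 16 histone windows in all. The CCAAT motif was in 14 of the 16 histone windows and 33.8% of all, and the TATA motif in 7 of 16 and 12.4% of all. ATTTGCAT, the octamer of H2B promoters, was in 4 of 6 H2B windows (H2bc1, H2bc3, H2bc14 and H2bc18), in that of H2ac1 and in 1.60% of all. These are matches of letters and do not show binding.

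The deposited values are log2 expression, so that a difference of 1 is a 2-fold difference. Tissue identity was checked with marker lists: the mean of 4 liver markers was 13.87 to 13.97 in liver arrays, that of 4 skeletal muscle markers 13.55 to 13.74 in quadriceps and 13.00 to 13.27 in gastrocnemius, and that of 3 heart markers 10.94 to 12.31 in heart. Some arrays carried transcripts of another tissue. The liver markers averaged 9.86 in replicate 1 of 24-month quadriceps, against 6.39 to 8.14 in the other quadriceps arrays, and 7.22 in replicate 2 of 6-month heart. They also differed by age among the other arrays. In quadriceps they read 7.64 to 8.14 at 6 months, and 7.06 and 6.39 in 24-month replicates 2 and 3. In heart they read 5.65 to 7.22 at 6 months and 5.18 to 5.57 at 24 months. The mean of 4 exocrine pancreas markers was 9.18 in replicate 2 of 24-month liver, against 6.39 to 6.75 in the other liver arrays. The liver arrays also differed in shape: the interquartile range over all genes was 2.27, 2.34 and 2.54 at 24 months and 2.64, 2.70 and 2.68 at 6 months.

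At the younger age the histone probe sets spread widely around the median of all genes. In 6-month liver 8 of the 18 lay above that median, in quadriceps 7, in heart 9 and in gastrocnemius 7. Values of different probe sets depend on their probes as well as on the transcript and are not compared with each other here. The 5 germ-cell members ranged from 3.51 to 7.42 over all 28 arrays, which gives no more than the reading of these probe sets in tissues where the genes are not known to be active. Members of the core classes are near-identical in sequence, so a probe set named for 1 gene may also catch RNA of its relatives.

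**Figure D1:**
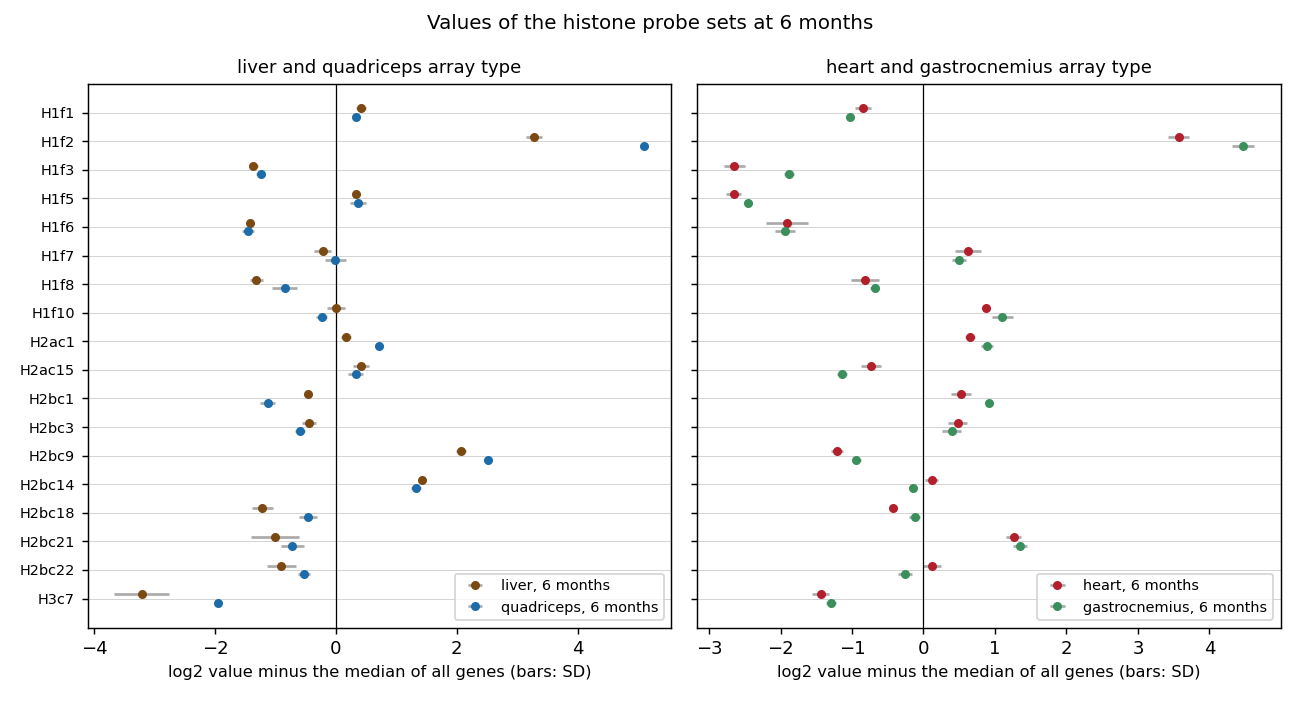
Log2 value of each histone probe set at 6 months minus the median of all genes of the array type (points: means of 3 arrays on the left, of 4 on the right; bars: SD). H1f2 is far right of the line in all 4 tissues, and H2bc9 and H1f5 lie right of it on the first array type and left of it on the second, where other probes read them.

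The place of some genes depended on the array type. H2bc9, an H2B gene, averaged 8.74 (SD 0.09, n = 3) in 6-month liver and 9.06 (SD 0.04, n = 3) in quadriceps, above the array medians of 6.53 to 6.68. On the other array type it averaged 4.67 (SD 0.08, n = 4) in heart and 4.63 (SD 0.07, n = 4) in gastrocnemius, below the array medians of 5.55 to 5.91. H1f5, a linker histone of dividing cells, stood likewise above the median in liver (6.95 to 7.07) and quadriceps (6.82 to 7.06) and below it in heart (3.11 to 3.36) and gastrocnemius (3.07 to 3.14). The array type and the tissue cannot be told apart in these 4 values, so tissues were compared only within an array type.

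Between liver and quadriceps at 6 months, 10 of the 18 genes passed limma's test (Benjamini-Hochberg adjusted p under 0.05 over all genes), against 68.2% of all 19928 genes. Of the 10, 4 were higher in liver (40.7% of all genes) and 6 lower (27.5%). The split became 2 and 7 with quantile normalization, 2 and 6 with cyclic loess and 1 and 7 with arrays centred on their medians. H1f2 was lower in liver (9.94 against 11.65, log2 difference -1.70, SE 0.09, adjusted p from limma 6.36e-10), about 3.26-fold. H3c7, an H3 gene, differed by -1.15 (SE 0.16). It read low in both tissues, 3.45 in liver and 4.61 in quadriceps (array medians 6.53 to 6.68). H2bc18 differed by -0.64 (SE 0.12), while H2bc1, the testis H2B gene, was higher in liver by 0.79 (SE 0.08). H2ac1, its H2A counterpart, differed by -0.43 (SE 0.10). Both are germ-cell members, so these are readings of their probe sets and no more. No linker gene but H1f2 differed by as much as 0.5: H1f8 differed by -0.35, H1f10 by 0.35 and H1f1 by 0.20, all past the threshold in the deposited values, and H1f3 by less than 0.01.

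Between heart and gastrocnemius at 6 months, 10 of the 18 genes passed the same limma test, against 75.5% of all 30063 genes. In the deposited values 8 of the 10 were higher in heart (60.8% of all genes) and 2 lower (14.7%), but all genes were shifted the same way by a median of 0.27. With quantile normalization, which removes that shift, the split became 3 higher and 8 lower, with cyclic loess 3 and 7, and with arrays centred on their medians 3 and 8. H1f2 was lower in heart (9.45 against 10.04, difference -0.59, SE 0.10, limma adjusted p 4.94e-05) and kept that direction under each scaling. H1f3 differed by -0.45 (SE 0.09). H2ac15 was higher in heart by 0.73 (SE 0.09), H2bc22 by 0.69 (SE 0.09) and H2bc14 by 0.58 (SE 0.05). H1f7 was higher by 0.44 as deposited, and by 0.12 to 0.15, not past the threshold, under the 3 other scalings.

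H1f2 (formerly Hist1h1c), a linker histone, had a lower mean at 24 months than at 6 months in each of the 4 tissues, and it was the only 1 of the 18 genes with a lower mean in all of them. H1f6 and H2ac1 had a lower mean in 0 of the 4, and the other 15 genes in 1 to 3. Of all genes, 45.1% had a lower mean in liver, 46.4% in quadriceps, 43.2% in heart and 44% in gastrocnemius. The share of all genes lower in all 4 tissues was not counted, so 1 of 18 has no such share beside it and sets H1f2 apart only within this list. No histone gene passed the threshold for age in any tissue. By limma with Benjamini-Hochberg adjustment, 0 of 18 were called in liver (0.326% of all genes called), 0 in quadriceps (0.00502%), 0 in heart (0.00665%) and 0 in gastrocnemius (0.00998%). At an unadjusted p under 0.05 from the same fits, 4 genes passed in liver (all genes 32.8%), 2 in quadriceps (7.06%), 2 in heart (5.99%) and 1 in gastrocnemius (16.5%). H1f2 was among them each time. In bulk RNA, fewer cells of a type and less RNA per cell cannot be told apart.

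**Figure D2:**
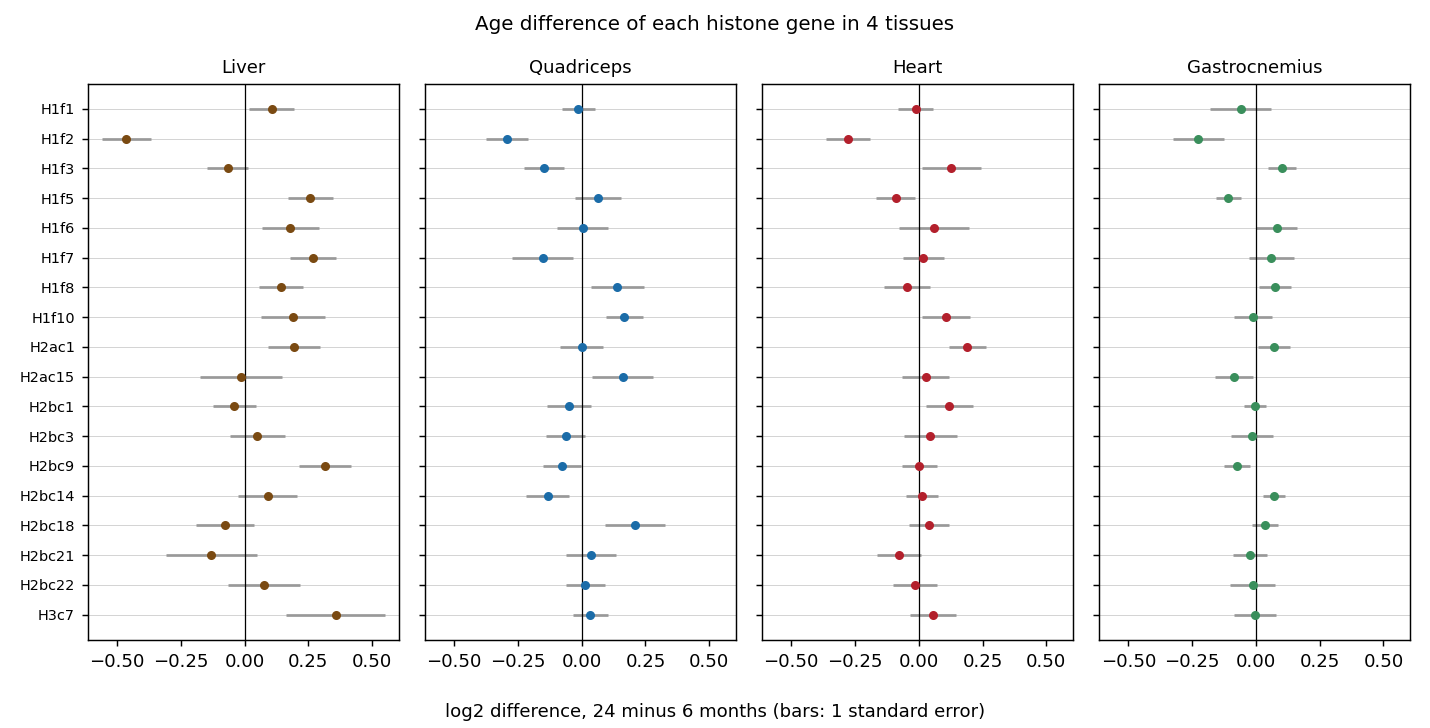
Log2 difference of each histone gene, 24 minus 6 months, in liver and quadriceps (3 arrays per age) and heart and gastrocnemius (4 per age); points are differences of means, bars 1 standard error. H1f2 lies left of 0 in the 4 panels, from -0.46 in liver to -0.23 in gastrocnemius, and most other points lie within 0.2 of 0.

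In liver, H1f2 read 9.87, 9.87 and 10.09 at 6 months and 9.60, 9.44 and 9.40 at 24 months. The ages did not overlap, as was so for 36.1% of all genes. The difference was -0.46 (SE 0.10, a fold of 1.38), with a limma adjusted p of 0.0543, just short of the threshold. Liver differences followed the level of a gene: the 1290 genes whose mean lay within 0.5 of that of H1f2 had a median difference of -0.13, and 1.47% of them were as low as H1f2 or lower. H1f2 had the lowest difference of the 18 genes in each tissue, so such shares, here and below, are a description and measure no chance. With cyclic loess, which removes a trend with level, the H1f2 difference in liver was -0.34 (limma adjusted p 0.113). Over 15 alternative settings of the liver fit it ran from -0.55 to -0.34, with limma adjusted p of 0.00520 to 0.172, and it passed the threshold in 6. The liver settings that called any histone gene called 9.84% to 39.6% of all genes, against 0.326% in the main fit. Without the 24-month array that carried pancreas transcripts the H1f2 difference was -0.44 (limma adjusted p 0.172). Without 24-month replicate 3 it was -0.42 and passed (0.0259), as did 25.5% of all genes.

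In quadriceps, H1f2 read 11.66, 11.64 and 11.64 at 6 months and 11.45, 11.42 and 11.19 at 24 months. The ages again did not overlap (12% of all genes). The difference was -0.29 (SE 0.08, limma adjusted p 0.572). Without replicate 1 of that age, which carried the most liver transcripts, it was -0.34 (limma adjusted p 0.488). The liver markers still differed by age among the remaining arrays (7.64 to 8.14 at 6 months, 7.06 and 6.39 at 24 months), and their part was not tested. The 295 genes of like level had a median difference of 0, and 3.05% were as low as H1f2 or lower.

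In heart, H1f2 read 9.33, 9.47, 9.36 and 9.65 at 6 months and 9.27, 9.01, 9.28 and 9.14 at 24 months, with no overlap, as for 3.29% of all genes. The difference was -0.28 (SE 0.08, limma adjusted p 0.573). Without 6-month replicate 2, which carried the most liver transcripts, it was -0.27 (limma adjusted p 0.932). The remaining 6-month arrays still read higher for the liver markers (5.65 to 6.355) than the 24-month arrays (5.18 to 5.57), and the part of this was not tested. Of 1150 genes of like level, with a median difference of 0, 0.522% were as low as H1f2 or lower.

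In gastrocnemius, H1f2 read 10.23, 10.08, 9.88 and 9.97 at 6 months and 9.87, 9.93, 9.91 and 9.55 at 24 months, and the ages overlapped, as they did for all but 8.65% of genes. The difference was -0.23 (SE 0.10, limma adjusted p 0.303). The 737 genes of like level had a median difference of -0.10, and 23.2% were as low as H1f2 or lower, so values this low were common at that level. Without 24-month replicate 4, the lowest array, the difference was -0.14 (limma adjusted p 0.492).

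**Figure D3:**
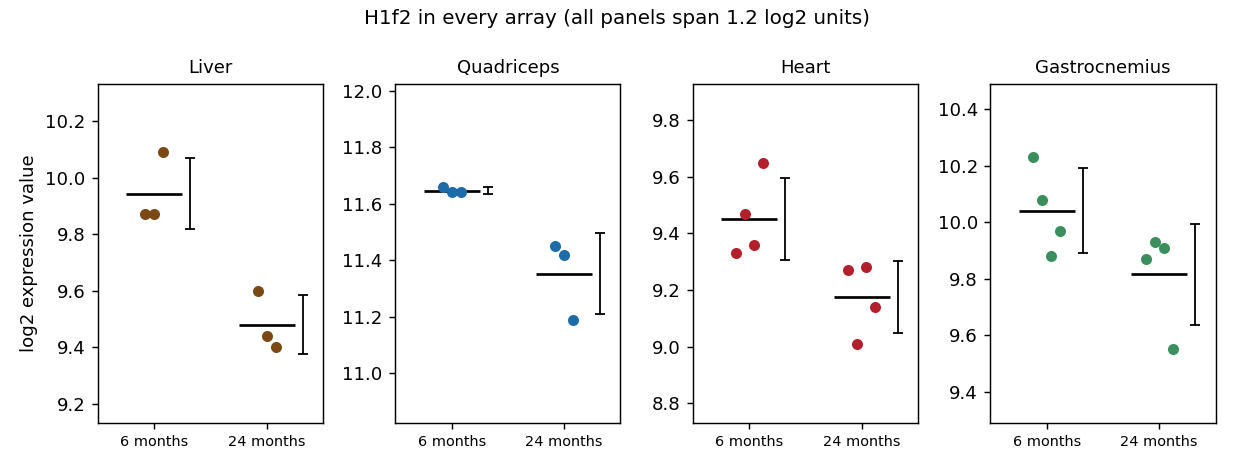
H1f2 log2 value in every array (points), with group means (lines) and SD (bars); n = 3 per age in liver and quadriceps, 4 in heart and gastrocnemius, and each panel spans 1.2 log2 units. The 24-month points lie below all 6-month points in liver, quadriceps and heart, and overlap them in gastrocnemius.

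The age difference of H1f2 was not shown to differ between tissues. The liver difference minus the quadriceps difference was -0.17 (SE 0.13, limma adjusted p 0.463), and the heart difference minus the gastrocnemius difference -0.05 (SE 0.14, limma adjusted p 0.919). An age difference averaged over both tissues of an array type was added after these values had been seen. Averaged over liver and quadriceps, H1f2 was lower at 24 months (log2 difference -0.38, limma adjusted p 0.0278), the 1 histone gene called beside 2.95% of all genes. At an unadjusted p under 0.05, 3 histone genes and 27.2% of all passed. The call was lost on leaving out 6-month liver replicate 3, 24-month liver replicate 2, 6-month quadriceps replicate 2, or 24-month quadriceps replicate 2 or 3, with limma adjusted p of 0.0520 to 0.0665. Averaged over heart and gastrocnemius, the difference was -0.25 (limma adjusted p 0.199), with 0 of 18 genes called beside 0.146% of all and 3 at an unadjusted p under 0.05 (11.3% of all).

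Of the other linker genes, H1f5 read 7.07, 6.95 and 6.99 in 6-month liver and 7.37, 7.28 and 7.13 at 24 months. The ages did not overlap, as for 36.1% of all genes (difference 0.26, SE 0.09, limma adjusted p 0.0928). H1f5 differed by 0.06 in quadriceps, -0.09 in heart and -0.11 in gastrocnemius, none past the threshold, so its sign was not shared by the tissues. H1f7, a histone of maturing sperm, read 6.60, 6.42 and 6.32 in 6-month liver and 6.72, 6.69 and 6.74 at 24 months (0.27, SE 0.09, limma adjusted p 0.0883), and differed by -0.15 in quadriceps. H1f10 had its lowest unadjusted p in quadriceps, where it read 6.24, 6.42 and 6.29 and then 6.45, 6.51 and 6.49. These did not overlap, as for 12% of all genes (0.17, SE 0.07, limma adjusted p 0.698). H1f3 differed by -0.15 in quadriceps and 0.10 in gastrocnemius. H1f1 stayed within 0.11 of 0 in the 4 tissues. The linker genes whose promoters are printed above thus did not share a direction with age: in liver H1f2 and H1f3 had lower means and H1f1 and H1f5 higher ones, none past the threshold.

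Of the core histone genes, H2bc9 had the smallest p in liver. It read 8.84, 8.69 and 8.69 at 6 months and 9.15, 9.16 and 8.86 at 24 months, without overlap, as for 36.1% of all genes (0.32, SE 0.10, limma adjusted p 0.0829). Its 24-month replicate 3 was the lowest of its age, and without that array the difference was 0.42 (limma adjusted p 0.0188, past the threshold). Leaving out that array raised the share of all genes called from 0.326% to 25.5%, and 5 of the 18 histone genes were called. H2bc9 differed by -0.08 in quadriceps, and liver minus quadriceps was 0.39 (SE 0.13, limma adjusted p 0.148). H3c7 had the largest liver difference upward, 0.36 (SE 0.19, limma adjusted p 0.224), but its 6-month arrays ran from 3.01 to 3.91 and overlapped the 24-month arrays (3.72 to 3.95). All of these values lay far below the medians of the liver arrays (6.65 to 6.78). H2bc21, an H2B gene also expressed in non-dividing cells, differed by -0.13 in liver, 0.04 in quadriceps, -0.08 in heart and -0.03 in gastrocnemius.

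In quadriceps H2bc18 had the highest difference (0.21, SE 0.12, limma adjusted p 0.760) and H2bc14 one of -0.13, both with overlapping ages. In heart H2ac1 differed by 0.19 (SE 0.07, limma adjusted p 0.760) and H2bc1, its testis partner, by 0.12. H2ac1 read 6.55, 6.45, 6.62 and 6.51 in 6-month heart and 6.72, 6.82, 6.83 and 6.52 at 24 months, so that 1 old array lay among the young ones. In gastrocnemius H2bc14 differed by 0.07 and H2bc9 by -0.07, and 17 of the 18 genes lay within 0.2 of 0, H1f2 being the exception.

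As a group the 18 genes showed no common shift. Their median difference was 0.10 in liver (all genes 0.03), 0.00 in quadriceps (0.01), 0.02 in heart (0.01) and -0.01 in gastrocnemius (0.02). The liver median was 0.01 with quantile normalization or median centring and 0.00 with cyclic loess, and 0.16 without 24-month replicate 3. The mean was lower at 24 months for 6 genes in liver, 8 in quadriceps, 6 in heart and 11 in gastrocnemius, where 45.1%, 46.4%, 43.2% and 44% of all genes had a lower mean. In the tests of liver against quadriceps and of heart against gastrocnemius, 0 of 18 age differences were called (0.0151% and 0.595% of all genes), with 2 and 0 at an unadjusted p under 0.05 (19.8% and 13.8% of all). Besides H2bc9, the smallest p in the first were those of H1f7 (0.42) and H2bc18 (-0.29), and in the second those of H2ac1 (0.12), H2bc1 (0.12) and H1f8 (-0.12).

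Some histone genes had a probe set of their own on 1 array type only. On the liver and quadriceps type there were 12, with 0 called for age in either tissue and 2 and 3 at an unadjusted p under 0.05 (all genes 32.8% and 7.06%). H4c14, an H4 gene, was 0.22 higher in mean in 24-month liver and 0.19 in quadriceps (limma adjusted p 0.112 and 0.703). Its ages did not overlap in either, as for 36.1% and 12% of all genes. H2bc4, an H2B gene, differed by -0.19 and -0.23 (limma adjusted p 0.158 and 0.622), the same sign as H1f2. On the heart and gastrocnemius type there were 15, with 0 called and 2 and 1 at an unadjusted p under 0.05 (all genes 5.99% and 16.5%). H3c3 differed by 0.29 in heart (SE 0.06, limma adjusted p 0.273). Its means there were 2.22 at 6 months and 2.51 at 24 months, far below the median of all genes (5.885 in 6-month heart). The pseudogene H2bu1-ps differed by 0.24 in gastrocnemius (limma adjusted p 0.158). These 4 were singled out after their values were seen.

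Other probe sets carried the symbols of several histone genes, of 1 class or of 2, and there were 26 of these on the first array type and 39 on the second. None was called for age. Probe sets of 1 class share much of their sequence, so they are not separate observations. The 10 H3 probe sets averaged 9.90, 9.82 and 9.66 in the 6-month quadriceps arrays and 10.41, 9.97 and 9.88 at 24 months. The highest of these arrays is the one that carried the most liver transcripts. The other old arrays were 9.97 and 9.88, 1 of them below the highest young array. The part of those transcripts in the difference was not tested. In liver the same H3 probe sets averaged 10.26, 10.18 and 10.04 at 6 months and 10.62, 10.24 and 10.02 at 24 months, with overlap.

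The 6 H4 probe sets averaged 10.45, 10.38 and 10.37 in 6-month quadriceps and 10.78, 10.51 and 10.62 at 24 months. These means did not overlap, as was so for 12% of all genes. Their differences had a median of 0.20 and a smallest limma adjusted p of 0.565. The array at 10.78 is again the one that carried the most liver transcripts, and these probe sets averaged 10.91 to 11.05 in 6-month liver. The part of those transcripts was not tested. The 7 probe sets shared by H2B and H4 genes all had a lower mean in 24-month quadriceps, by -0.09 to -0.04. In gastrocnemius the 7 H3 probe sets averaged 6.263 to 6.333 at 6 months and 6.167 to 6.259 at 24 months, without overlap. The 9 H2B probe sets there did not overlap either (7.107 to 7.189 and 6.973 to 7.086). All 7 H3 probe sets had a lower mean at 24 months, with a median of -0.07 and a smallest limma adjusted p of 0.282. So had 8 of the 9 H2B probe sets (median -0.15, smallest limma adjusted p 0.106) and 9 of the 11 H4 probe sets (-0.07 and 0.263). In heart all 7 H3 and all 11 H4 probe sets had a higher mean at 24 months, with medians of 0.08 and 0.06 and smallest limma adjusted p of 0.955 and 0.370, and the array means overlapped.

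**Figure D4:**
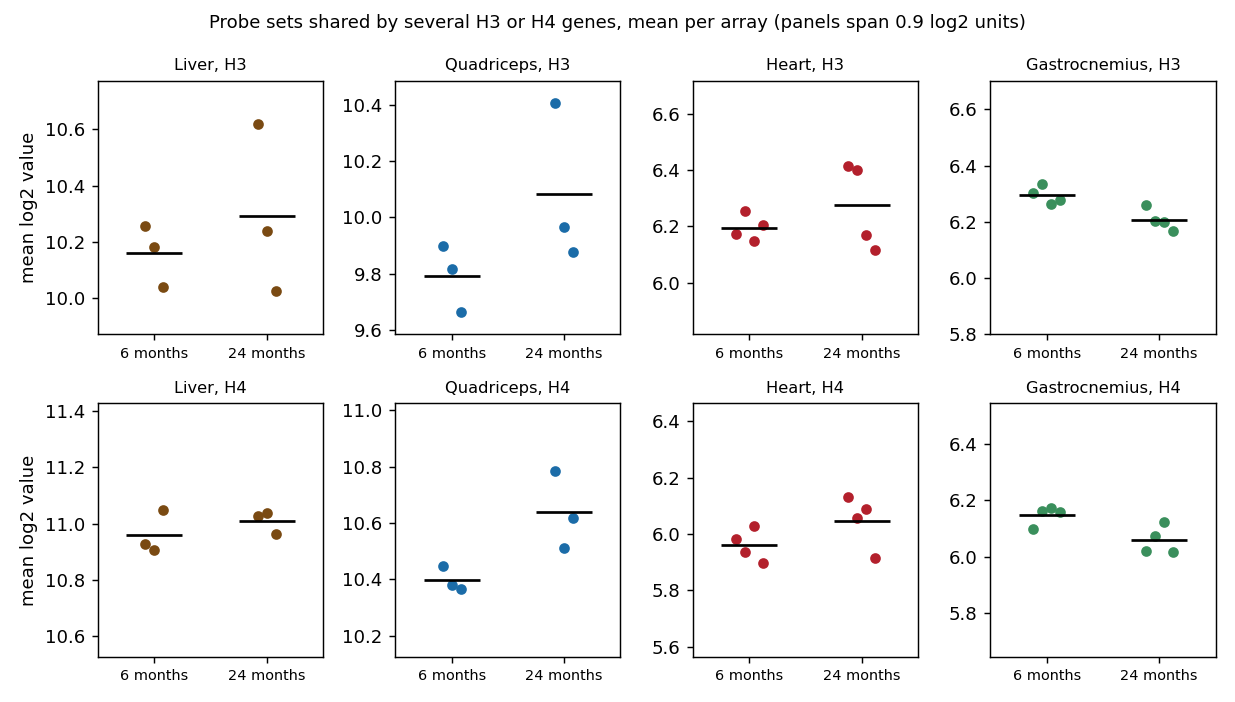
Mean log2 value per array of the probe sets shared by several H3 genes (top; 10 probe sets in liver and quadriceps, 7 in heart and gastrocnemius) or H4 genes (bottom; 6 and 11); points are arrays, lines group means, and each panel spans 0.9 log2 units. In quadriceps the highest 24-month array is replicate 1, which carried liver transcripts, at 10.41 for H3 and 10.78 for H4. The ages do not overlap for H4 in quadriceps, where the 24-month means are higher, or for H3 in gastrocnemius, where they are lower.

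Genes that make, carry or replace histones gave no call for age either. Of the replication-independent variants, 9 were measured in liver and quadriceps and 8 in heart and gastrocnemius (H1f10 stands in this list and among the 18 genes), with median differences of 0.08, -0.01, 0.05 and -0.02 in liver, quadriceps, heart and gastrocnemius, 0 called by limma and 1, 2, 0 and 2 at an unadjusted p under 0.05 (all genes 32.8%, 7.06%, 5.99% and 16.5%). H2ax, the variant phosphorylated at DNA breaks, differed by -0.32 in liver (limma adjusted p 0.0678) and -0.14 in gastrocnemius. H2az2, a variant found at promoters, differed by 0.21 in quadriceps and -0.18 in gastrocnemius (limma adjusted p 0.614 and 0.141), so its sign was not shared by the muscles.

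Of 20 measured genes of histone transcription and mRNA processing, 15 had a lower mean in 24-month liver (45.1% of all genes), with a median of -0.17. By limma 0 were called and 8 had an unadjusted p under 0.05 (all genes 32.8%). The list's mean level in 6-month liver was 7.89, above the median of all genes (6.67). Liver differences followed the level of a gene, and the part of level in this list was not tested. Ncbp1, a subunit of the cap-binding complex, differed by -0.48 (limma adjusted p 0.0543) and Eri1, an exonuclease that trims the histone stem-loop, by -0.44 (0.0616). Slbp, the protein that binds that stem-loop, differed by -0.29 in liver, 0.23 in quadriceps, 0.01 in heart and 0.02 in gastrocnemius. Npat, which activates histone genes in S phase, differed by -0.26, -0.16, -0.01 and 0.07 in the same order. In the other tissues the list's medians were 0.06, -0.01 and -0.01, with 0, 0 and 2 genes at an unadjusted p under 0.05 (all genes 7.06%, 5.99% and 16.5%).

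Of 20 histone chaperones measured in liver, 15 had a lower mean at 24 months (45.1% of all genes), with a median of -0.14. By limma 0 were called and 7 had an unadjusted p under 0.05 (all genes 32.8%). This list too lay above the median of all genes in 6-month liver (7.485 against 6.67), and the part of level was not tested. Nap1l1, which escorts H2A and H2B, differed by -0.55 (limma adjusted p 0.0543) and Supt16, a subunit of FACT, by -0.36 (0.0569). The other tissues had medians of 0.02, -0.02 and 0.05, with 1, 0 and 5 genes at an unadjusted p under 0.05 (all genes 7.06%, 5.99% and 16.5%). In gastrocnemius Hat1, which acetylates new H4, differed by 0.17 (limma adjusted p 0.176) and Nap1l4 by -0.18 (0.179).

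Of 29 genes of DNA replication and mitosis measured in liver, 21 had a higher mean at 24 months and 8 a lower one (lower in 45.1% of all genes), with a median of 0.14. By limma 0 were called and 6 had an unadjusted p under 0.05 (all genes 32.8%). This list lay below the median of all genes in 6-month liver (6.17 against 6.67), and the part of level was not tested. Rrm2 and Tk1, which supply nucleotides for DNA synthesis, differed by 0.29 and 0.32 (limma adjusted p 0.0587 and 0.0659). In quadriceps the list's median was 0.00 and 3 genes had an unadjusted p under 0.05 (all genes 7.06%), among them Prc1, a mitotic spindle protein, at 0.51 (limma adjusted p 0.186) and Mki67, a marker of dividing cells, at 0.41 (0.572). The medians in heart and gastrocnemius were 0.02 and 0.02, with 0 and 1 genes at an unadjusted p under 0.05 (all genes 5.99% and 16.5%).

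**Figure D5:**
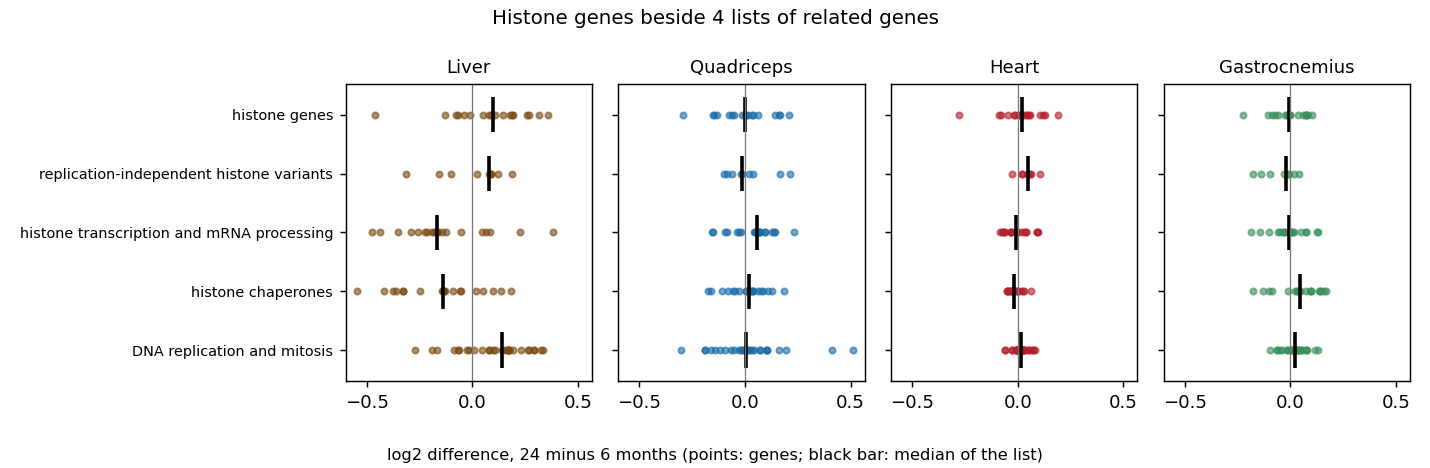
Log2 difference, 24 minus 6 months, of the 18 histone genes and of 4 lists of related genes in each tissue (points: genes; black bars: list medians). In liver the medians run from -0.17 to 0.14, and in the other tissues each lies within 0.06 of 0.

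Markers of other cell types also had other mean levels in 24-month liver. All 6 T and NK cell markers had a higher mean at 24 months (median difference 0.31), and their mean level ran from 5.81 to 6.06 over the 6-month arrays and from 6.10 to 6.45 over the 24-month arrays. So did 4 of 5 B and plasma cell markers (0.53, 5.54 to 5.93 and 5.98 to 6.62) and all 5 neutrophil markers (0.21, 5.49 to 5.69 and 5.83 to 5.98). Macrophage markers had a median difference of 0.00 and 3 erythroid markers one of 0.18. All 4 skeletal muscle markers had a higher mean too (0.30, 5.70 to 5.77 and 5.92 to 6.07), as had all 4 heart markers (0.13, 6.17 to 6.33 and 6.34 to 6.43) and all 4 exocrine pancreas markers (0.92, 6.39 to 6.41 and 6.50 to 9.18). None of these markers was called by limma. In 6-month liver the marker lists with a median difference above 0 lay below the median of all genes (6.67), save the erythroid list (7.14). Liver differences followed the level of a gene, and the part of level here was not tested. The part of these cell types in the liver values of H1f5, H2bc9 and the replication genes was not tested. In gastrocnemius all 6 T and NK cell markers (0.16), all 4 B and plasma cell markers (0.24) and all 5 macrophage markers (0.15) had a higher mean at 24 months. For the T and NK and the B and plasma lists, 24-month replicate 1 was the highest array (5.547 and 5.755). The T and NK cell markers read 5.007 to 5.175 in the other 24-month arrays and 4.997 to 5.123 at 6 months. The B and plasma cell markers likewise read 4.72 to 4.86 and 4.67 to 4.97, so the ages overlapped in both lists. The macrophage markers did not overlap (6.05 to 6.094 at 6 months, 6.184 to 6.38 at 24 months).

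The genes whose values followed the mean of the 18 most closely were, in liver, Olfr699, 2610524H06Rik and Vgll1 (Pearson r 0.99 over 6 arrays), in quadriceps Gipc1, Exoc1 and Epc1 (0.99), in heart Hpdl, Agfg2 and Scgb2b10 (0.97 to 0.98 over 8 arrays) and in gastrocnemius Gm16035, Gm6309 and Snx22 (0.97). None was shared between tissues. They are the closest of 19928 or 30063 genes over few arrays and are given as a description.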

How the data were processed

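Total RNA was measured on 28 arrays. The authors deposited log2 expression values, 1 per probe set and array, in 2 tables; the submitters' processing notes name RMA, with the version and the arrays normalized together not given in the sources used here. All columns matched samples by name (0 unmapped), and 0 pairs of arrays were duplicates. The tables held 28944 and 65956 probe sets, of which 21797 and 30604 had 1 gene symbol, 1613 and 2146 several and 5534 and 33206 none. Symbols came from the platform annotation and were updated through RefSeq names, changing 23 and 1135; the highest-mean probe set represented each gene, leaving 19928 and 30063 genes. The rule matched 30 and 33 genes, 18 in both. H1f0 and Hist4h4 had no probe set of their own under these names and were not analysed here.

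Differences were tested in R 4.3.3 with limma 3.58.1 (lmFit, eBayes, two-sided), over all genes of a table with Benjamini-Hochberg adjustment and a threshold of 0.05; age per tissue used that tissue's arrays, tissue contrasts and differences of differences all 4 groups of a table. No filter on low values was applied. The members and lists were chosen with earlier results of these data known. Genes named are those called per comparison, filled to 5 by smallest p (3 for differences between tissues, 2 per list), the extremes, H1f2 and H2bc21, Slbp and Npat, and the 3 most like the members' mean; others were named after their values were seen. Alternatives were quantile, cyclic loess (3 iterations) and median-centred scaling, dim genes left out, the mean of all probe sets, a trend with robust prior, array weights, a joint fit, the replicate block (the number for age differences, the number within an age for contrasts between tissues) and leaving out each array. The fits were tested on simulated data: of 100 genes changed by 1 log2 unit, the fits recovered 92 (liver), 95 (quadriceps), 99 (heart) and 98 (gastrocnemius), and of those changed by 0.5, 39, 51, 79 and 81. The few arrays per group limit the precision. Replicate numbers were checked for pairing: correlations of same-numbered arrays between ages ran from -0.22 to 0.30, and no tissue had all above 0.1. Each mouse was killed at 1 age, so only arrays of different tissues at 1 age could share a mouse. Between tissues of 1 age the correlations ran from -0.11 to 0.19. These values do not show whether tissues shared mice, and the numbers were not taken as pairs.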

Additional observations from a re-analysis of the deposited data

Results flagged for a closer look

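In 4 of 72 groups of 4 arrays (18 genes in the heart and gastrocnemius groups), 1 array stood far from the other 3; chance alone flags about 1 group in 20. H1f2 read 9.55 in replicate 4 of 24-month gastrocnemius, against 9.87 to 9.93 in the others. H1f7 read 6.46 in replicate 4 of 24-month heart, against 6.54 to 6.55. H2ac1 read 6.39 in replicate 3 of 24-month gastrocnemius, against 6.55 to 6.58. H2bc21 read 7.06 in replicate 2 of 6-month gastrocnemius, against 6.85 to 6.88.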

How the results depend on the processing

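Counts of called histone genes for age stayed at 0 in quadriceps, heart and gastrocnemius under every alternative run. In liver 0 became 1 with arrays centred on their median (9.84% of all genes called) and with dim genes left out (1 of 8, 17% of all), 2 with a trend and robust prior (11.3%) and in the joint fit (18.2%), and 8 with array weights (39.6%); leaving out 1 array gave 0 to 5, with 5 without 24-month replicate 3 (25.5%). The liver median of 0.10 became 0.011 with quantile normalization, 0.00063 with cyclic loess and 0.00833 when centred. On leaving out an array the medians ran from 0.0917 to 0.159 in liver (0.159 without 24-month replicate 3), -0.0308 to 0.0158 in quadriceps, -0.00625 to 0.0554 in heart and -0.0192 to 0.0217 in gastrocnemius. The liver minus quadriceps count of 0 became 1 (H2bc9) with array weights and 0 to 1 on leaving out an array, 1 without 24-month liver replicate 3. With dim genes left out, 5 of 8 remaining genes were called between liver and quadriceps at 6 months and 6 of 9 between heart and gastrocnemius; leaving out an array gave 8 to 11 and 9 to 11. Centring moved the median age difference of all liver genes from 0.03 to -0.06. For the averaged difference in liver and quadriceps, chosen after seeing the data, the count of 1 became 4 with array weights (25.5% of all genes) and 0 to 3 on leaving out an array: 0 without 6-month liver 3, 24-month liver 2, 6-month quadriceps 2, or 24-month quadriceps 2 or 3, and 3 without 24-month liver 3 (18.6% of all). With the replicate number as a block it stayed at 1 (H1f2 -0.38, limma adjusted p 0.0391), and the block moved no count of called histone genes by over 1.5 times; in liver, where 65 of all genes were called, it left 0. The heart minus gastrocnemius value of H1f2, near 0, ran from -0.14 to 0.013 on leaving out an array, above 0 without 6-month heart 4, 24-month heart 2 or 6-month gastrocnemius 3. H1f2 had a lower mean at 24 months in every alternative of the 4 tissues (15, 15, 17 and 17), but most of these could not turn the sign. Several leave the difference of means as it was. In liver, quadriceps and heart the ages do not overlap, so leaving out or weighting arrays cannot turn it either. There only the quantile, cyclic loess and median-centred scalings could have done so. The causes were not tested. The number of arrays limits the precision.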
